A study of Mus musculus with 3 samples.

Results

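A set of 10 heat shock chaperone genes is described in mouse cells labelled T-helper 1: Hspa1a, Hspa1b, Hspa8, Hsph1, Hsp90aa1, Hsp90ab1, Dnajb1, Dnaja1, Hspd1 and Hspe1. They are 10 among the 50600 listed genes, and were chosen by name because the counts of Hspa1b and Hspa1a were known to vary between the replicate libraries, so that variation is given below as a description and supports no result. The other questions are how high each gene stands, and how the stress-inducible members compare with the constitutive members of the same families.

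Heat shock proteins bind unfolded or newly made proteins and help them to fold. HSP70 chaperones (Hspa genes) hold exposed stretches of a client protein in cycles driven by ATP, HSP40 partners (Dnaj genes) deliver the clients, and HSP90 chaperones (Hsp90 genes) take over late in folding. Under heat or other proteotoxic stress the transcription factor HSF1 binds heat shock elements, which are repeats of GAA in alternating orientation, and raises transcription of the inducible genes within minutes.

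The cells were C57BL/6NJ mouse primary cells, and the labels name the assay total RNA-seq but link a library protocol for poly(A)+ RNA, so whether RNA was selected by its tail cannot be told from them. The 3 libraries form 1 group. Each is a numbered biological replicate (1, 2 and 3) with a biosample of its own and a donor identifier in common, and no treated or control group was analysed here. The header of each table gave a time of 0 hours, and age, sex and developmental stage were given as unknown or not collected. Summed over genes, replicate 1 had 3647366 counts, replicate 2 had 4305077 and replicate 3 had 2510319.

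All 10 genes of a T cell marker list (Cd3d, Cd3e, Cd3g, Cd4, Trac, Trbc1, Trbc2, Lck, Cd2, Cd5) reached 1 TPM, a length-scaled share of the counts, in all 3 libraries. Of 7 Th1 markers, 2 did (Stat4 and Il12rb2). Tbx21, which encodes the Th1 master regulator, and Ifng, its main cytokine, had 1, 3 and 0 counts each, and Cxcr3 had 0 in all. The T cell label was met by its markers, and the defining Th1 markers were at or near 0.

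The strand on which the counts were made limits every level below. Counting used strand setting 1, in which a fragment counts for a gene when its first read lies on the gene's strand. A gene model was taken as nested where at least 90% of its exonic bases lay inside the exons of a gene of the other strand. It had to have at least 200 exonic bases and to cover less than 90% of that gene. Together with that gene it had to hold at least 60 counts. Such nested models numbered 197. Counts per base were higher in the nested model for 162 of them in replicate 1, 157 in replicate 2 and 162 in replicate 3. The median excess was 25.4-fold, 16.8-fold and 44.4-fold, over the 195, 196 and 193 models whose outer gene held counts. On the mitochondrial genome, mt-Nd6 (519 bases, light strand) had 20191, 20392 and 21040 counts, while mt-Co1 (1545 bases, heavy strand) had 9015, 14727 and 2276. Were the libraries of the reverse orientation, counts could stem largely from the strand opposite the gene, and the levels below might not measure its mRNA. Genes with no gene of the other strand within 5 kb also held counts, at 15.4%, 19.9% and 9.05% of the total in replicates 1, 2 and 3. The orientation of the library kit was not given in the sources used here, and this was not tested further.

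Promoter sequences are shown first, because heat shock elements are the sites through which these genes are known to respond to stress. The windows run from 250 bases before to 50 after the start site (RefSeq, GRCm38.p6), and 7 of the 10 members matched, with 12 windows. Hspa8, Hsp90aa1 and Hsp90ab1 were not matched. Searches used 2 spellings of a pair of GAA units in opposite orientation, GAANNTTC and TTCNNGAA, where N is any base. Each reads the same on both strands, and they can overlap by sharing a unit. Either spelling was present in 6 of the 7 matched members, and Dnajb1 had neither. Of 27025 genes with a window in the same set, 16.97% had either spelling. A match is a description of letters, not a site of binding.

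The 250 bases upstream of Hspa1b (chr17:34959239-34959488, minus strand) and Hspa1a (chr17:34972157-34972406, minus strand) are printed because these near-identical duplicates share nearly all of them. Capitals mark the GAANNTTC match, which starts 104 bases before the start site in both, and all other bases are in lower case.
Hspa1b: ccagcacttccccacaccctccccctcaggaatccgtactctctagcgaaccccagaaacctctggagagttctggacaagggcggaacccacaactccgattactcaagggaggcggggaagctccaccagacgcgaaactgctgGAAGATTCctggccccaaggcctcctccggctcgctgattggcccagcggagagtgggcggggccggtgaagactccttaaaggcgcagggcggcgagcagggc
Hspa1a: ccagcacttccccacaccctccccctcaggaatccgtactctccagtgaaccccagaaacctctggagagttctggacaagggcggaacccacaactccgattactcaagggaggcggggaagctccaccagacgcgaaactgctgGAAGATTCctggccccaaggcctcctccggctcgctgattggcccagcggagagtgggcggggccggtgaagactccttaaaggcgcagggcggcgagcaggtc
These sequences differed at 3 of 250 bases and were alike at 247.

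Stretches of 30 bases around the matches of 3 other genes are printed to show how the matches are arranged, with the matched bases in capitals. The stretch of Hspe1 lies at chr1:55088053-55088082 (plus strand), 95 to 66 bases before its start. The same bases, read on the other strand, lie before a start of Hspd1, because these genes are transcribed away from each other. The stretch of Dnaja1 lies at chr4:40722333-40722362 (plus strand), and that of Hsph1 at chr5:149636351-149636380 (minus strand).
Hspe1: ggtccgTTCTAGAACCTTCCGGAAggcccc
Dnaja1: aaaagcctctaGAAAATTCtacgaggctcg
Hsph1: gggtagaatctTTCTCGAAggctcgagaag
The Hspe1 stretch held 3 overlapping matches in a row, and the Dnaja1 and Hsph1 stretches held 1 each.

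Levels within a library are given in TPM, computed here from the deposited counts and exon lengths, as mean ± SD over n = 3 libraries. Hsp90ab1, Hspa8 and Hsp90aa1 stood highest, and the duplicates Hspa1b and Hspa1a lowest. The means spanned 648.6 to 4.82 TPM. Of the 10 genes, 4 (Hspa1a, Dnaja1, Hspd1 and Hspe1) have exons that overlap an exon of the other strand, so that their counts may hold fragments of another gene. In bulk RNA, fewer cells of a type and less RNA per cell cannot be told apart.

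**Figure D1:**
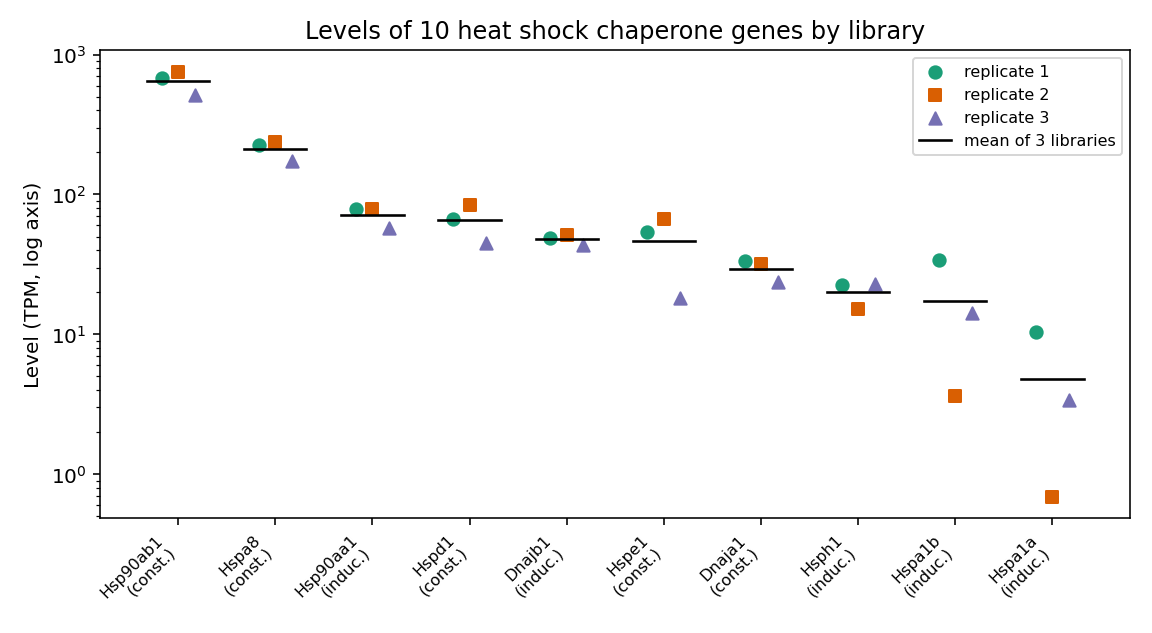
Levels of the 10 chaperone genes in each library (TPM, log axis), ordered by their mean, with points for replicates 1, 2 and 3 and a bar for the mean of the 3 libraries. Induc. and const. mark inducible and constitutive members. Hsp90ab1 lies between 513.7 and 757 TPM, while Hspa1a runs from 0.688 to 10.4 TPM with replicate 2 lowest.

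Among the HSP70 genes, Hspa8 (chromosome 9, 40800984 to 40810087, plus strand) encodes HSC70, the constitutive cytosolic chaperone. It had 227, 238 and 173 TPM in replicates 1, 2 and 3, with a mean of 213 ± 34.7, and ranked 288 of 21751 protein-coding genes. Its span also holds 3 small nucleolar RNA genes (Snord14c, Snord14d and Snord14e) on the same strand, of 86, 86 and 90 bases.

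Hspa1b (chromosome 17, 34956436 to 34959238, minus strand) encodes the main stress-inducible HSP70. It had 180, 20 and 60 counts, which gave 34.1, 3.64 and 14.3 TPM with a mean of 17.4 ± 15.5. Replicate 2 was low and replicate 1 high, and the SD was nearly as large as the mean. No gene of the other strand lay within 5 kb of it.

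Hspa1a (chromosome 17, 34969190 to 34972156, minus strand), its neighbouring duplicate, had 58, 4 and 15 counts. These gave 10.4, 0.688 and 3.38 TPM with a mean of 4.82 ± 5.005. The order of the libraries was that of Hspa1b. The 4 counts of replicate 2 had an exact 95% Poisson interval of 1.09 to 10.2, against 44.0 to 75.0 for the 58 counts of replicate 1. Intervals cover counting error only.

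Hspa1a and Hspa1b are near copies, and counts can be lost or split between them. Of all 100-base windows of the Hspa1b transcript, 49.9% were also present in another gene, and of Hspa1a 48.6%. For Hspa1b, 1350 of 2704 windows matched Hspa1a. Fragments that map to more than one place were not counted under the options in the header, so both levels may be too low.

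Hsph1 (chromosome 5, 149614287 to 149636376, minus strand) encodes HSP105, a large HSP70 relative that acts as a nucleotide exchange factor and is stress-inducible. It had 22.4, 15.2 and 22.8 TPM, with a mean of 20.15 ± 4.26. Replicate 2 was again lowest. No 100-base window of its transcript was shared with another gene.

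Of the cytosolic HSP90 genes, Hsp90ab1 (chromosome 17, 45567775 to 45573271, minus strand) encodes the constitutive form. It had 675, 757 and 514 TPM, with a mean of 648.6 ± 124, and ranked 69 of 21751 protein-coding genes. Hsp90aa1 (chromosome 12, 110690605 to 110702728, minus strand) encodes the more inducible form and had 78.2, 78.4 and 57.7 TPM, with a mean of 71.5 ± 11.9. For both genes replicate 3 was lowest on this scale. Hsp90aa1 shares 47.55% of its 100-base windows with other loci, mainly Gm12346, and Hspa8 shares 31.6%, mainly with Gm15459, so their levels may be too low too.

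Among the HSP40 genes, Dnajb1 (chromosome 8, 83608193 to 83612653, plus strand) encodes the inducible partner of HSP70. It had 49.1, 51.3 and 43.4 TPM, with a mean of 47.9 ± 4.05, and no 100-base window shared with another gene. Dnaja1 (chromosome 4, 40722150 to 40737149, plus strand) encodes a constitutive partner and had 33.2, 31.6 and 23.65 TPM, with a mean of 29.5 ± 5.12. Its exons share 608 bases with Smu1 and 249 with Gm6297 on the other strand, and Smu1 held 159, 238 and 54 counts. Of the 100-base windows of Dnaja1, 14.8% were shared with other loci, mainly Gm15542, so its level may be too low.

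Hspd1 and Hspe1 encode HSP60 and HSP10, the barrel and the lid of the mitochondrial chaperonin. Hspd1 (chromosome 1, 55077835 to 55088243, minus strand) had 67.0, 83.8 and 44.8 TPM, with a mean of 65.2 ± 19.6. Hspe1 (chromosome 1, 55088132 to 55091307, plus strand) had 54.1, 67.2 and 18.2 TPM, with a mean of 46.5 ± 25.4. Both were lowest in replicate 3. Their first exons share 112 bases on opposite strands. Of the 100-base windows of Hspd1, 26.9% were shared with other loci, mainly Hspd1-ps3, against 0.35% for Hspe1, so the level of Hspd1 may be too low.

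The order of the mean levels was Hsp90ab1, Hspa8, Hsp90aa1, Hspd1, Dnajb1, Hspe1, Dnaja1, Hsph1, Hspa1b and Hspa1a. Neighbours were taken to differ beyond their spread where the log2 ratio of TPM had 1 sign in all 3 libraries and its mean exceeded its SD. On this rule Hsp90aa1 and Hspd1, Dnajb1 and Hspe1, Hspe1 and Dnaja1, and Hsph1 and Hspa1b did not differ beyond their spread. The other 5 neighbouring pairs did.

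Inducible genes were compared with their constitutive relatives within each library, as the log2 ratio of TPM + 0.1. Hspa1b was 6.65-fold below Hspa8 in replicate 1, 65.4-fold in replicate 2 and 12.1-fold in replicate 3, a mean log2 ratio of −4.10 ± 1.69 (SD, n = 3). Hspa1a was 21.9-fold, 346-fold and 51.2-fold below Hspa8, a mean of −6.10 ± 1.95. The sign held in every library, while the size of the gap varied by nearly a factor of 10 for Hspa1b (65.4 against 6.65).

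The HSP90 ratio varied less between libraries. Hspa1b and Hspa1a were chosen for varying between them, so nothing is read from that contrast. Hsp90aa1 was 8.63-fold, 9.65-fold and 8.90-fold below Hsp90ab1, a mean log2 ratio of −3.18 ± 0.08 (n = 3). In the HSP40 pair the inducible gene was the higher, with Dnajb1 above Dnaja1 at a mean log2 ratio of 0.71 ± 0.16. Without length scaling that ratio turned to −0.72, as Dnaja1 has 8629 exonic bases and Dnajb1 3204. Fragments lost at shared stretches may also lower Dnaja1 more than Dnajb1.

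Hspa1b exceeded Hspa1a in all 3 libraries, with a mean log2 ratio of 2.00 ± 0.27 (n = 3). Hspe1 was below Hspd1 in all 3, at −0.64 ± 0.57, with log2 ratios of −0.31, −0.32 and −1.30. Each of the 6 pairs had the same sign in 3 of 3 libraries. The exact two-sided sign-flip permutation test gave p = 0.25 for each (adjusted p = 0.25 over the 6 pairs), the smallest that 3 libraries allow, so none could pass 0.05.

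For this comparison, 5 members were classed as inducible (Hspa1a, Hspa1b, Hsph1, Hsp90aa1, Dnajb1) and 5 as constitutive (Hspa8, Hsp90ab1, Dnaja1, Hspd1, Hspe1). The split is a simplification and was not tested here. Hspd1, Hspe1 and Dnaja1 also had a match to the searched promoter spellings, and Dnajb1 had none. The median inducible level was 34.1, 15.2 and 22.8 TPM in replicates 1, 2 and 3, against 66.96, 83.8 and 44.8 TPM for the constitutive members. The difference of the medians of log2(TPM + 0.1) was −0.97, −2.45 and −0.97, a mean of −1.46 ± 0.86 (n = 3). The inducible median was the lower in every library, most of all in replicate 2. In replicate 1 that median was the value of Hspa1b itself. Hspa1b and Hspa1a, whose variation chose the set, are among the inducible members, so nothing is read from the change between libraries. Over the members with no exon overlap on the other strand the difference was −3.47, but this leaves only Hspa8 and Hsp90ab1, the highest members, as constitutive. With Hsph1 and Dnaja1 left out it was −2.25.

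The 10 genes together made up 1251, 1327 and 915 TPM. The inducible members held 15.5%, 11.25% and 15.5% of this sum, at 194, 149 and 142 TPM, and the constitutive members held 1057, 1178 and 773.5 TPM. Hsp90ab1 and Hspa8 thus outweighed all other members on the TPM scale.

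Levels between libraries were compared as depth-scaled counts (CPM) with TMM scaling, which sets libraries equal over a trimmed majority of genes, because the make-up of the counts differed. The share of counts in genes with an exon overlap on the other strand was 63.1% in replicate 1, 53.8% in replicate 2 and 76.5% in replicate 3, and a scaling by totals moves with that share. The scaled values of Hspa1b were 46.6, 3.66 and 32.1 CPM. Replicate 1 was 12.7-fold above replicate 2 (exact binomial 95% interval for counting error 8 to 21.3) and replicate 3 was 8.76-fold above it (5.21 to 15.4). Replicate 1 was 1.45-fold above replicate 3 (1.08 to 1.98).

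Hspa1a had 15.02, 0.733 and 8.02 CPM on the same scale. Its ratio of replicate 1 to 2 was 20.5 (7.59 to 77.8) and of replicate 3 to 2 it was 10.95 (3.49 to 45.3). Replicate 2 was thus the low library for both duplicates, and the intervals of Hspa1a were wide. The distance between the 2 genes, over the 3 deviations of log2(CPM + 0.5) from each gene's mean, was 0.24.

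Hsph1 had 79.3, 39.7 and 132.6 CPM. Its ratio of replicate 1 to 2 was 1.99 (1.67 to 2.38) and of replicate 3 to 2 it was 3.34 (2.77 to 4.02). Replicate 3 was the high library here, not replicate 1 as for the duplicates.

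The remaining members varied less. Dnajb1 had 76.7, 59.0 and 111.3 CPM, Hsp90aa1 had 150.0, 110.6 and 181 CPM, and Dnaja1 had 139.6, 98.0 and 163 CPM. Hspa8 had 476, 368 and 595 CPM and Hsp90ab1 had 987.5, 814 and 1231 CPM. All 5 shared the order replicate 3 above 1 above 2. Hspd1 was nearly level at 86.2, 79.5 and 94.7 CPM, and Hspe1 had 38.85, 35.5 and 21.4 CPM with replicate 3 lowest.

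All 10 members were higher in replicate 1 than in replicate 2 on this scale, and 9 were higher in replicate 3 than in replicate 2, Hspe1 being the exception. Of all 10662 tested genes, 48.9% were higher in replicate 1 and 46.1% in replicate 3 than in replicate 2. Both directions depend on the scaling. With total counts in place of TMM, 8 members were higher in replicate 1 than in 2 (all but Hspd1 and Hspe1), and on the TPM scale 4 were (Hspa1a, Hspa1b, Hsph1 and Dnaja1). For replicate 3 against 2, total counts left 4 members higher (Hspa1a, Hspa1b, Hsph1 and Dnajb1), and the TPM scale 3 (Hspa1a, Hspa1b and Hsph1). Under total counts the median of all 10662 tested genes shifted by −0.85 on the log2 scale between these libraries, against −0.11 under TMM.

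**Figure D2:**
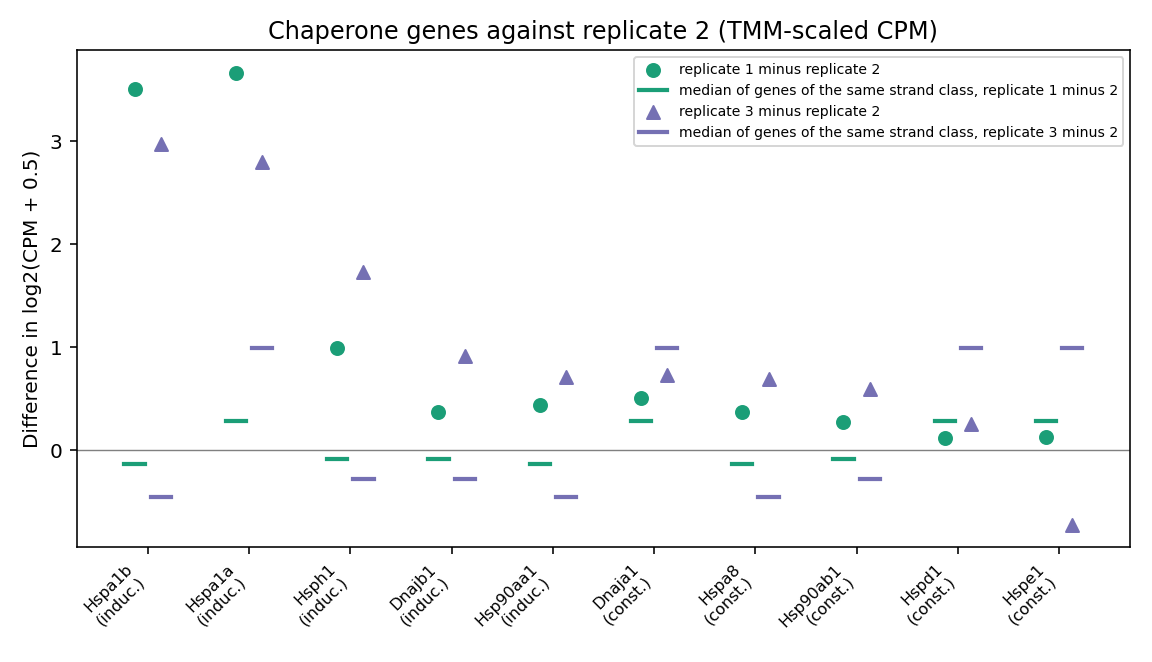
Difference in log2(CPM + 0.5) of each member from replicate 2, for replicate 1 (circles) and replicate 3 (triangles), with TMM scaling. Short bars give the median of all tested genes of the same strand class, such as genes with exon overlap on the other strand. Hspa1b lies 3.50 and 2.97 above replicate 2 in replicates 1 and 3, and Hspe1 lies at −0.72 in replicate 3.

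The log2 range over the libraries, the largest less the smallest log2(CPM + 0.5), was above 1 for 3 of the 10 members, namely Hspa1a at 3.65, Hspa1b at 3.50 and Hsph1 at 1.73. Across all genes with a mean of at least 1 CPM, 48.2% had a range above 1. With TMM over genes with no exon overlap on the other strand, 7 of the 10 members had a range above 1, and 6500 genes in all against 6724. The nearest member below that value was Dnajb1 at 0.91. Apart from Hspa1a and Hspa1b, whose variation chose the set, the inducible members had ranges of 0.71 (Hsp90aa1), 0.91 (Dnajb1) and 1.73 (Hsph1) under TMM, and the constitutive members 0.25 (Hspd1) to 0.85 (Hspe1). These ranges moved with the scaling. With total counts Hspe1 had 1.47, against 0.96 for Hsph1, 0.23 for Hsp90aa1 and 0.15 for Dnajb1. With TMM over genes with no exon overlap, the constitutive Hspa8 and Dnaja1 had 1.02 and 1.05. Hsp90aa1, Dnajb1 and Hsph1 then had 1.03, 1.23 and 2.05. Without replicate 2, the range was 0.56 for Hspa1b and 0.89 for Hspa1a. That of Hsph1 was 0.71 without replicate 2, 0.99 without replicate 3 and 0.96 with total counts, so that it rests on both of these libraries and on the scaling.

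By a Poisson chi-square test of the counts over libraries, 8 members varied beyond counting error at an adjusted p of 0.05, out of 9 that passed the filter on low counts. The exception was Hspd1, and Hspa1a did not pass the filter. Of 10662 genes tested in the same way, 62.4% were called. Since the members were selected on this variation, nothing is read from these counts.

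Library differences moved with the strand class of a gene. The median log2 difference of replicate 3 from replicate 2 was 1.00 for genes with exon overlap, −0.28 for those within 5 kb of a gene of the other strand and −0.45 for those with none. Less the median of its own class, Hspa1b stood at 3.42, Hsph1 at 2.01, Dnajb1 at 1.19, Hsp90aa1 at 1.16, Hspa8 at 1.15 and Hsp90ab1 at 0.88. All 6 members without exon overlap stood above the median of their class, which by definition splits a class evenly. Of the 4 with exon overlap, Hspa1a stood at 1.79, and Dnaja1 at −0.26, Hspd1 at −0.74 and Hspe1 at −1.71 stood below the median of their class. Since the set was chosen on variation between these libraries, nothing is read from these counts of members.

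**Figure D3:**
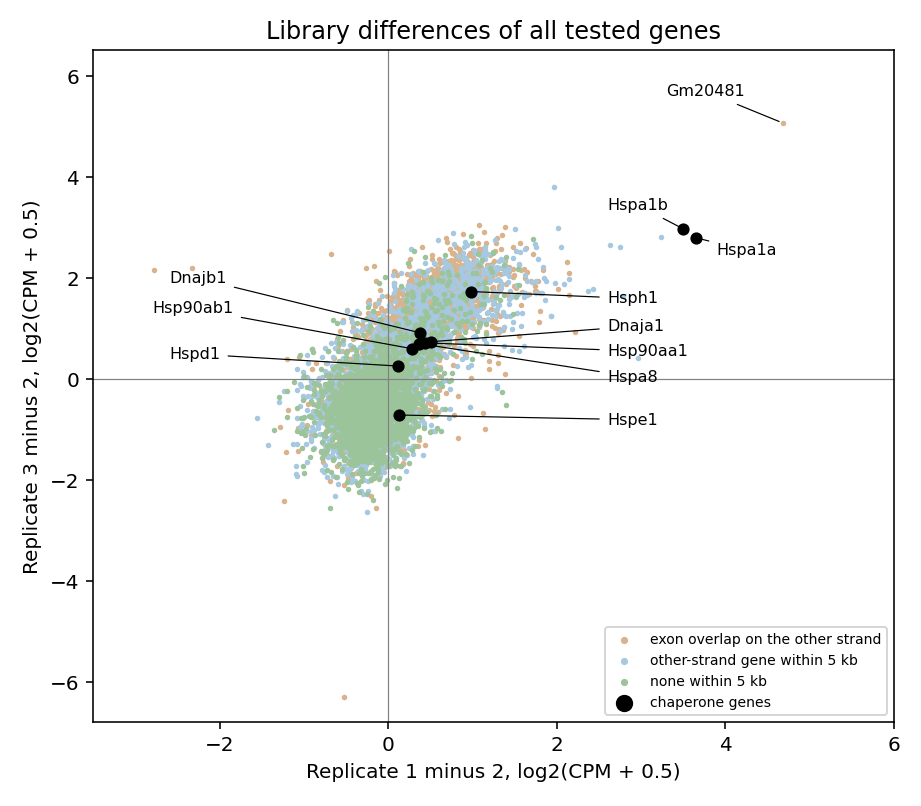
Difference in log2(CPM + 0.5) of replicate 1 (x axis) and replicate 3 (y axis) from replicate 2 for all 10662 tested genes, coloured by strand class, with the 10 chaperone genes in black. Hspa1b and Hspa1a lie at the upper right, where few tested genes lie, among them Gm37520 at 3.23 and 2.81, and the other members lie within the cloud. Gm20481, at 4.69 and 5.06, is the 1 other tested gene whose replicate 1 difference reaches that of Hspa1b.

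Gm20481 is a feature annotated as protein-coding on the other strand inside Hspa1a (chromosome 17, 34969912 to 34972136, plus strand), and was singled out after its values were seen. All of its 564 exonic bases lie within the exon of Hspa1a, where they cover 19.0% of that gene. It held 557, 28 and 351 counts, against 58, 4 and 15 for the whole of Hspa1a. Per base, its counts were 50.5, 36.8 and 123.1 times those of Hspa1a. Such an excess was not particular to this locus. Among the nested models with a ratio, 47 of 195 had a larger one in replicate 1, 40 of 196 in replicate 2 and 56 of 193 in replicate 3.

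On the TMM scale Gm20481 had 144.3, 5.13 and 187.7 CPM. Replicate 1 was 28.1-fold above replicate 2 (19.3 to 42.7) and replicate 3 was 36.6-fold above it (24.9 to 55.9). The low library was replicate 2, as for Hspa1a and Hspa1b, on 936 counts in all. Which strand these fragments came from was not tested. Hspa1l, the testis-type HSP70 gene next to it on the plus strand (34972703 to 34979285), had 29.5, 18.7 and 40.65 CPM.

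**Figure D4:**
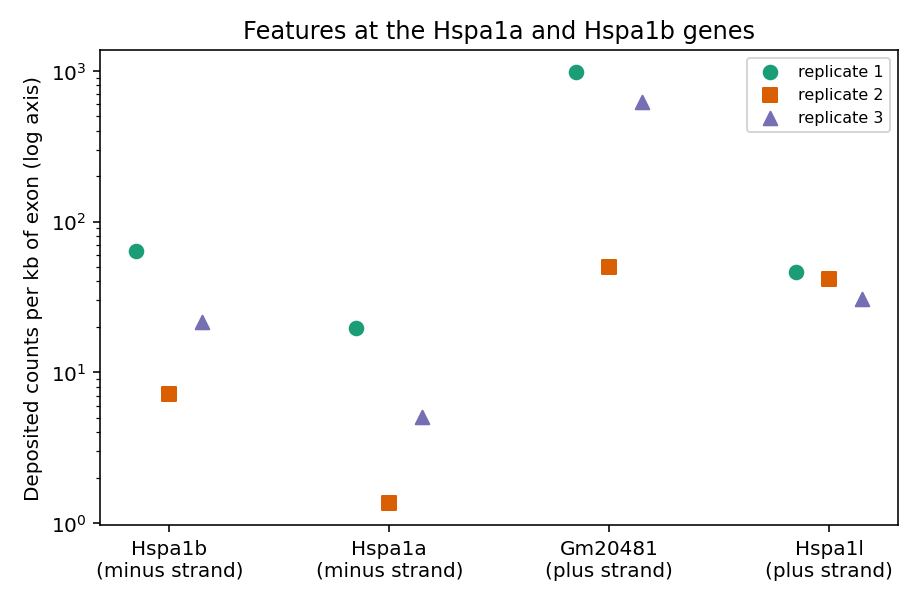
Deposited counts per kb of exon (log axis) at Hspa1b, Hspa1a, Gm20481 and Hspa1l in replicates 1, 2 and 3, not scaled for depth. Gm20481, which lies inside Hspa1a on the other strand, has 987.6, 49.65 and 622 counts per kb, and replicate 2 is lowest for the first 3 features.

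Hsf1, which encodes the main heat shock factor, was nearly level at 39.4, 38.1 and 42.25 CPM, and Hsbp1, a small HSF1-binding protein, had 32.1, 35.2 and 23.0 CPM. These 2 of the 4 heat shock factor genes passed the filter, and neither was called by the chi-square test. Hsf2 and Hsf4 had ranges above 1 on few counts (44, 52 and 6 for Hsf2, and 2, 6 and 4 for Hsf4).

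Of 78 other chaperone genes in 8 lists, 64 passed the filter and 26 of these were called by the chi-square test, where 62.4% of all genes were. Of the 69 with a mean of at least 1 CPM, 17 had a range above 1, where 48.2% of all genes did. Replicate 2 was the lowest library for 24 of the 64 (37.5%), close to the 37.6% of all genes, and for 8 of the 9 members that passed the filter. In replicate 3 they were higher than in replicate 2 in 29 of 64 cases (45.3%), against 46.1% of all genes. With TMM over genes with no exon overlap they were higher in 43 of 64 cases, against 6387 of all 10662 genes. The median range was 0.42.

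Among the co-chaperones of HSP70 and HSP90, 8 of 18 tested genes were called, and 4 of 18 had a range above 1. Stip1, which encodes the adaptor that joins HSP70 to HSP90, had 101.5, 78.2 and 180.2 CPM, a range of 1.20, with no gene of the other strand within 5 kb. Bag3, a stress-inducible nucleotide exchange factor of HSP70, had 4.66, 2.93 and 12.8 CPM on 18, 16 and 24 counts. Both were lowest in replicate 2 and highest in replicate 3, the order of Hsph1. Stub1, a ubiquitin ligase for chaperone clients, and Pih1d1, a subunit of an HSP90 co-chaperone complex, had ranges of 1.58 and 1.28 with exon overlap on the other strand. Bag1 had 55.7, 60.1 and 59.4 CPM.

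Of the other HSP70 genes, 1 of 5 tested was called, Hspa1l, with a range of 1.10 and exon overlap. Hspa4, a constitutive relative of Hsph1, was level at 110.1, 119.0 and 119.3 CPM, and Hspa14 had 27.7, 34.8 and 25.7 CPM. Hspa12a and Hspa13 had ranges above 1 on at most 45 counts a library.

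Of the 9 organelle chaperones 5 were called. Hspa5, the HSP70 of the endoplasmic reticulum, was level at 163.4, 169.2 and 173.3 CPM, and Hsp90b1, its HSP90, had 266, 230.4 and 293.6 CPM. Dnaja3 and Grpel1, partners of the mitochondrial HSP70, had ranges of 1.07 and 1.02 with exon overlap, and the mitochondrial protease gene Clpp had a range of 1.09 with replicate 3 lowest.

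Of 15 other HSP40 genes 5 were called. Dnajc7 had 311.8, 286.8 and 427.9 CPM, Dnajc8 had 110.1, 106.6 and 78.1 CPM and Dnaja2 had 84.7, 99.1 and 64.2 CPM. Dnajb2 had a range of 1.02 on at most 74 counts. Of the 8 genes of the TRiC chaperonin, which folds actin and tubulin, 4 were called, and Tcp1 was the gene with a range above 1, at 1.07 with exon overlap. Cct5 had 137.3, 163.5 and 157.8 CPM and Cct2 had 121.7, 137.9 and 90.9 CPM.

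Of the 6 prefoldin genes 2 were called, Pfdn5 with 101.3, 97.1 and 77.6 CPM and Vbp1 with a range of 1.17 and replicate 3 lowest. Pfdn1 and Pfdn2 had ranges of 0.45 and 0.22. Of the 9 small heat shock protein genes, 4 had 0 counts in all libraries and 1 passed the filter, Hspb6, with 17.9, 9.71 and 33.2 CPM and exon overlap. Hspb1, an inducible small heat shock protein, had 1, 1 and 4 counts, and Hspb9 had 9, 5 and 8.

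Immediate early genes, which rise in freshly dissociated cells, are given for comparison. Any part of dissociation in the values of the chaperone genes was not tested. Replicate 2 was lowest for none of the 10 that passed the filter, against 37.6% of all tested genes. Of these 10, 1 was higher in replicate 1 than in replicate 2, against 48.9% of all tested genes. Their summed levels were 389, 636 and 314 TPM, and 2 of the 13 (Atf3 and Ier3) had 0 counts. Btg2 had 67.3, 80.0 and 35.3 CPM, Dusp1 8.81, 14.65 and 6.95 CPM, and Nr4a1 13.2, 16.7 and 6.42 CPM, each highest in replicate 2. Btg2, Dusp1 and Nr4a1 have no gene of the other strand within 5 kb. The median log2 differences of that class from replicate 2 were −0.14 in replicate 1 and −0.45 in replicate 3. Jund and Junb, with exon overlap, were highest in replicate 3, as was Ier2.

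Cell markers also moved with the libraries. All 10 T cell markers were higher in replicate 2 than in replicates 1 and 3 on the TMM scale. The median log2 differences were −0.21 for replicate 1 and −0.61 for replicate 3, and the summed levels 3094, 5149 and 1386 TPM. For all genes with no gene of the other strand within 5 kb, as for Lck, Cd2 and Cd4, the medians were −0.14 and −0.45. With TMM over genes with no exon overlap, Lck, Cd2 and Cd4 were slightly higher in replicate 1, by 0.018, 0.011 and 0.002. The other markers stayed lower in replicate 1, and all 10 stayed lower in replicate 3. The 8 B cell markers summed to 272, 402 and 124 TPM, most of it Ighm, with Ms4a1, Pax5 and Igkc at 0 and Cd79b at 0, 1 and 0 counts. Ighm had 218.1, 238.1 and 110.7 CPM, while Cd79a had 23.6, 25.3 and 57.8 CPM and was highest in replicate 3, and Ighd had 5, 5 and 2 counts. The 9 myeloid markers summed to 94.2, 82.5 and 100.6 TPM, most of it Csf1r with exon overlap, and Cd14, Adgre1, S100a8, S100a9 and Fcer1g were at 0. Cst3 had 31, 36 and 9 counts and Itgam 3, 9 and 1. The 5 CD8 T cell and natural killer markers summed to 10.6, 18.4 and 7.67 TPM, most of it Cd8b1, with Nkg7 and Ncr1 at 1, 0 and 0 counts and Klrb1c at 0. The part of these differences in the values of the chaperone genes was not tested.

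The 5 genes nearest to Hspa1b in pattern were sought among 5004 genes with a mean of at least 10 CPM and no exon overlap, by the distance of the 3 deviations of log2(CPM + 0.5). They were Gm37520 (distance 0.19), Pitpnm2os2 (0.53), Gm17137 (0.53), E030018B13Rik (0.62) and Fam196b (0.93). Gm37520 had 54.1, 5.31 and 40.1 CPM, and each of the 5 was lowest in replicate 2. Each lies within the span of a gene on the other strand, namely Prkcq, Pitpnm2, Xpo6, Klf13 and Dock2 in that order.

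Of the members themselves, Hspa1a was nearer to Hspa1b than all but 1 of these candidates. Hspa1a would not itself be a candidate, with a mean of 7.93 CPM and an exon overlap. Both genes were chosen for varying between these libraries, so nothing is read from that rank. For Hsph1, at a distance of 1.78, 114 candidates were nearer. The 7 other members lay at distances of 2.20 to 2.89, with 400 to 2497 candidates nearer. With 3 libraries a likeness in pattern rests on 3 values and is a description.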

How the data were processed

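Counts per gene were deposited by the authors, who ran featureCounts 1.4.6-p4 on read pairs (both mates aligned, strand setting 1) against GENCODE M13 on mm10, per the file headers and the labels. The sources used here do not give the aligner's version or the read length. Replicates were not pooled, and SDs measure the spread between these libraries. The chi-square p-values measure departure from counting error, and the sign-flip p-values were the smallest that 3 libraries allow.

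Symbols came from GENCODE M21 by gene identifier (50376 of 50600 named). TPM were derived here by dividing deposited counts by deposited exon length. Effective library sizes came from TMM (trimmed mean of M-values) in edgeR 4.0.16, over the 10662 genes kept by filterByExpr, and DESeq2 1.42.0 size factors served as another setting. Strand classes came from bedtools 2.31.1. PCR duplicates were not told apart. The chi-square step was run on simulated counts that held counting error only. Those cannot show how it behaves where biological replicates differ.

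The members, lists and tests were chosen with earlier results of these data known. Named were all members, from each other list the 3 with the highest mean TPM and those with a log2 range above 1 at a mean of at least 1 CPM, and the 5 genes most like Hspa1b. The nested features and the counts of genes higher in replicates 1 and 3 than in replicate 2 were added after the data were seen. The value of 1 B cell marker is not reported here.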

Additional observations from a re-analysis of the deposited data

How the results depend on the processing

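The counting strand limits every level, and the scaling bears on the differences between libraries. Members with a range above 1 numbered 3 under TMM and 7 under TMM over genes with no exon overlap on the other strand, and 0 to 3 when each replicate was left out in turn. With total counts only, 4 members and 9 of the other chaperone genes were higher in replicate 3 than in replicate 2, against 9 and 29 under TMM. Of the other chaperone genes, 36 were higher with DESeq2 size factors and 43 with TMM over genes with no exon overlap. All genes with a range above 1 numbered 6724, and 1368 to 5941 when each replicate was left out. Genes called by the chi-square test numbered 6649, and 3303 to 6377 when each replicate was left out, the lowest without replicate 3.

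The ratio of Dnajb1 to Dnaja1 reversed to −0.72 with no length scaling. The inducible less the constitutive median was −3.47 over members with no exon overlap, where only Hspa8 and Hsp90ab1 remain as constitutive. It was −1.71 to −0.97 when each replicate was left out. Hspa1b to Hspa8 lay between −4.79 and −3.16 and Hspa1a to Hspa8 between −6.94 and −5.04 when each replicate was left out. Under the alternatives, 59 further values of the main results held. For a count this means within 1.5 times the main value, with no check of direction. For a ratio or difference it means the same direction and a value within the spread. The 4 counts of Hspa1a in replicate 2 limit its ratios. No paired analysis was possible because the series holds 1 group.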
